A study of Homo sapiens with 12 samples.

Results

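The proteasome is the protease that degrades proteins tagged with ubiquitin. Its genes were read from RNA sequencing of THP-1 cells, an established human line from a monocytic leukaemia. The members were the rows whose symbol is PSM, a letter from A to G and a number, without PSMB8 and PSMB9, and with at least 120 counts summed over the 12 libraries. Of 48 matching symbols, 2 were left out by name and 2 fell under the count minimum (PSMA8 with 0 counts and PSMB11 with 8). The remaining 44 members, of 78932 genes in the tables, were 15 subunits of the core, 17 of the cap, 5 activators or inhibitors and 7 assembly chaperones. All 44 passed the filter on low counts.

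The 12 libraries formed 4 groups of 3. CEL cells received LPS, ATP, cyclosporin A (CsA), eltrombopag and luspatercept. CE cells received the same agents without luspatercept, and LPS cells received LPS and ATP alone. NC is the normal control, for which the labels list no agent. LPS is a bacterial cell wall component sensed by TLR4, and together with ATP it serves here as a model of pyroptosis, an inflammatory form of cell death. CsA blocks calcineurin, eltrombopag activates the thrombopoietin receptor, and luspatercept traps ligands of the activin receptor family. The sources used here give neither doses nor times, and all groups are the same line. The labels do not say whether the libraries of a group came from separate cultures, so p-values measure the spread between these libraries, which may be technical.

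Each library held 17737240 to 23183474 estimated counts, of which the members took 0.569% to 0.7115%. Of 12 monocytic markers, 8 were at 1 TPM or more in NC and 10 in each other group, while CEBPA and MPO stayed under 1 TPM in every library. The markers summed to 442 to 483 TPM in CEL, 461 to 601 TPM in CE, 717 to 1074 TPM in LPS and 809 to 1141 TPM in NC, and their part in the results below was not tested. LYZ carried most of the sum in NC alone, with means of 24.9 TPM in CEL, 30.0 TPM in CE, 161 TPM in LPS and 615 TPM in NC. CD68 had 242 TPM in CEL and 81.2 TPM in NC, and CD33, CSF1R and ITGAM were also higher in CEL than in NC. Of 12 markers of other cell types only NCAM1 reached 1 TPM on average, and the 12 summed to at most 9.75 TPM. The library CE 2 stood apart, at -14.5 on the second principal component against 26.9 in CE 1 and 20 in CE 3. In 37 of 44 members CE 2 was the lowest of the CE libraries, and PSMD3 alone among the members was over 1.5 times higher there than in both other CE libraries. The shares of all genes with these traits were not counted, so they are not known to be particular to the members.

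The core is a barrel of 4 stacked rings. The alpha rings (PSMA genes) gate its ends, and the beta rings (PSMB genes) hold the protease sites, which PSMB5, PSMB6 and PSMB7 carry in most cells. In cells exposed to interferon, PSMB8, PSMB9 and PSMB10 replace them and form the immunoproteasome, which favours peptides for presentation on MHC class I. The cap binds ubiquitin chains, removes them and unfolds the substrate with a ring of ATPases (PSMC genes) on a base, beside a lid (most PSMD genes). PSME1 and PSME2 form another activator ring that opens the core without ubiquitin and is also induced by interferon. Myeloid cells are known for a high share of the immunoproteasome.

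The promoters of 3 interferon-inducible members are shown because their transcripts moved apart from each other in these groups. They are taken from RefSeq on GRCh38.p14 and run 5′ to 3′ on the strand of the gene, from 250 bases before its start to 50 after. Capitals mark GAAA, any 2 bases and GAAA again, on either strand, the core pattern of an interferon-stimulated response element. They cover chr14:24135944-24136243 on the plus strand for PSME1, chr14:24146561-24146860 on the minus strand for PSME2 and chr16:67936801-67937100 on the minus strand for PSMB10.
PSME1: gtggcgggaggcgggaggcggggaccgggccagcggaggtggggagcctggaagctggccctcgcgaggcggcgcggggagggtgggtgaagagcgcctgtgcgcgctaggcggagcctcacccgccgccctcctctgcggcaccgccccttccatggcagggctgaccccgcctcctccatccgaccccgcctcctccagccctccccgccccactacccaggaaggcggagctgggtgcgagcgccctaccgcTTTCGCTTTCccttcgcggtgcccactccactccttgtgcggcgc
PSME2: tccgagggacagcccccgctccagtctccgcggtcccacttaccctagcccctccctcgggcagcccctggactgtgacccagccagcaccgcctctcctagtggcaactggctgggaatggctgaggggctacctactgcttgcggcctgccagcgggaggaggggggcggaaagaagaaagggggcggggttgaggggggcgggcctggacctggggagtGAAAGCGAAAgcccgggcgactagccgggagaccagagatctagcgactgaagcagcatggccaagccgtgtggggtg
PSMB10: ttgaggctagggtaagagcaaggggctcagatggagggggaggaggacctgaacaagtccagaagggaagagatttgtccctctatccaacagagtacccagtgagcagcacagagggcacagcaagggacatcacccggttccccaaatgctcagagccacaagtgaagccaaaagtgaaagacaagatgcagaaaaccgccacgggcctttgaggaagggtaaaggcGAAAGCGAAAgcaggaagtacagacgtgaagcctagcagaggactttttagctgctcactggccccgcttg

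The pattern begins 28 bases before the start of PSME2, 21 before that of PSMB10 and at base 6 after that of PSME1, where it lies on the opposite strand. All 3 hold the same 10 bases, GAAAGCGAAA. Among the 38 members with a promoter in the table, 6 hold the pattern (15.8%), against 4.38% of 27305 genes. The other holders were PSMG4, with the same 10 bases, PSMA4 and PSMB4. For these 6 genes, LPS over NC gave log2 changes of 0.62 for PSME1, 0.61 for PSME2, 0.15 for PSMA4, 0.04 for PSMB4, -0.16 for PSMB10 and -0.45 for PSMG4. PSMA4, PSMB4 and PSMB10 did not pass (adjusted p = 0.110, 0.620 and 0.103). A match describes letters in this window and is not a shown binding site.

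Shares here are of genes with a pattern in any of their promoters, over the 38 members and over all genes with a promoter. Of 8 other patterns searched on both strands, the antioxidant response element core TGACNNNGC was in 36.8% of members, against 16.1% of all genes. The ETS-type CCGGAAG was in 36.8% against 12.2%. The looser TGANNNNGC, which includes that core, was in 63.2% against 47.1%. CCAAT was in 47.4% against 39.7%, TTCNNNGAA, a STAT-type pattern, in 15.8% against 9.38%, and an NF-kB-type pattern, GGG and CC with 5 bases between them, in 76.3% against 61.7%. TATAAA was in 10.5% against 14.0%, and CACGTG in 7.90% against 8.78%.

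Levels of different genes are compared in TPM, which divides by transcript length. Over the members, the median of the median TPM was 139.6, and the highest was 137.5 times the lowest. PSMA6, an alpha ring gene, was highest with a median of 551 TPM, followed by PSMA4 with 521 TPM and PSMC1, a cap ATPase, with 478 TPM. The lowest were PSMG4 at 4.01 TPM, PSMD5 at 10.2 TPM and PSMG3 at 13.1 TPM, all of which are assembly chaperones. The alpha ring covered 206 to 551 TPM, while the core chaperones covered 4.01 to 124.6 TPM. Among the catalytic beta genes, PSMB7 had 170.0 TPM, PSMB6 64.7 TPM and PSMB5 45.6 TPM. PSMB10 stood at 49.5 TPM. Over the 12 libraries, the ranges of 43 of 43 neighbouring pairs in this order overlapped, as in the plot of levels by role. Ribosomal RNA took 12.8% of TPM in NC 3 and 11.6% in LPS 1, against 1.06% to 1.9% elsewhere, which lowers every other TPM in these libraries. Levels between groups are therefore given in CPM, which are counts relative to the total of the library after scaling by TMM factors.

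**Figure D1:**
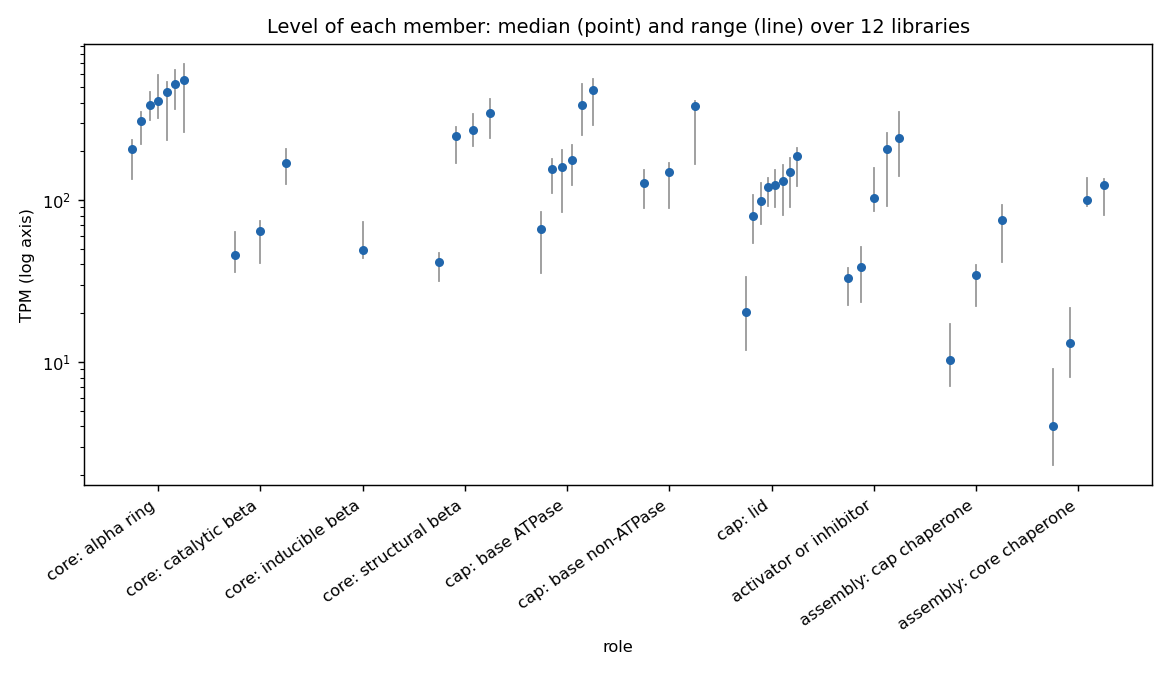
Level of each of the 44 members by role, in TPM on a log axis; points are medians and lines the range over 12 libraries. The alpha ring lies at 206 to 551 TPM, and PSMG4, a core chaperone, is lowest at 4.01 TPM.

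A member is said to rise or fall where edgeR's quasi-likelihood test gave a Benjamini-Hochberg adjusted p under 0.05 over 14065 genes, and changes are log2 values ± standard error. In bulk RNA, fewer cells with a transcript and less of it per cell cannot be told apart. LPS over NC raised 11 of 44 members, against 22.4% of all genes, and lowered 3, against 23.5%. Over LPS, CE raised 10 (28.8% of all genes) and lowered 19 (20.7%), and CEL raised 14 (28.7%) and lowered 14 (27.2%). CEL over CE raised 7 (8.78%) and lowered 2 (14.8%), which a fit with the replicate block reduced to 3 and 1. Over NC, CE raised 12 (34.6%) and lowered 13 (29.4%), and CEL raised 15 (34.0%) and lowered 11 (33.0%). The share of members lowered was 6.82% in LPS over NC, 43.2% in CE over LPS and 4.545% in CEL over CE, and the share raised in CEL over CE was 15.9%. No test of these shares against those of all genes was made, and the 19 lower calls of CE over LPS became 10 without the filter on low counts and 24 with upper quartile factors.

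The members' median change was 0.03 in LPS over NC, where the median of all genes was -0.01. It was -0.12 in CE over LPS (all genes 0.08), 0.00 in CEL over LPS (-0.03) and 0.08 in CEL over CE (-0.09). Each comparison held calls in both directions, though not all of them lasted in other fits. In none of the 6 did 7 members pass (PSMA2, PSMA5, PSMB3, PSMB6, PSMC6, PSMD3 and PSMD7). The comparisons share libraries, since each group enters 3 of the 6. Counts depended on the scaling and on CE 2: upper quartile factors gave 2 higher and 24 lower in CE over LPS, while leaving out CE 2 gave 11 and 16. Without CE 1 or CE 3, CE over LPS gave 3 higher, and without NC 3, LPS 1, LPS 2 or CEL 1 it gave 5, and 6 without CEL 2. In LPS over NC, 7 were higher without NC 3 or LPS 2, and 1 was lower without NC 1, NC 2, LPS 1 or LPS 3. CEL over CE gave 21 higher without CE 1, 4 without CEL 1, 3 without CE 2, and 2 without CE 3, CEL 2 or CEL 3. Its lower calls fell to 1 or 0 without any library other than CE 2. CEL over NC gave 7 lower without CEL 1. A call is named stable below where it held in all 18 count-based alternatives, 12 of which leave out 1 library each. Stable calls numbered 7 higher and 0 lower in LPS over NC, 2 and 10 in CE over LPS, 4 and 10 in CEL over LPS, and 0 and 0 in CEL over CE. Over NC there were 5 higher and 9 lower in CE, and 8 and 7 in CEL. The share of all genes with stable calls was not counted, so these numbers cannot be set against it.

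**Figure D2:**
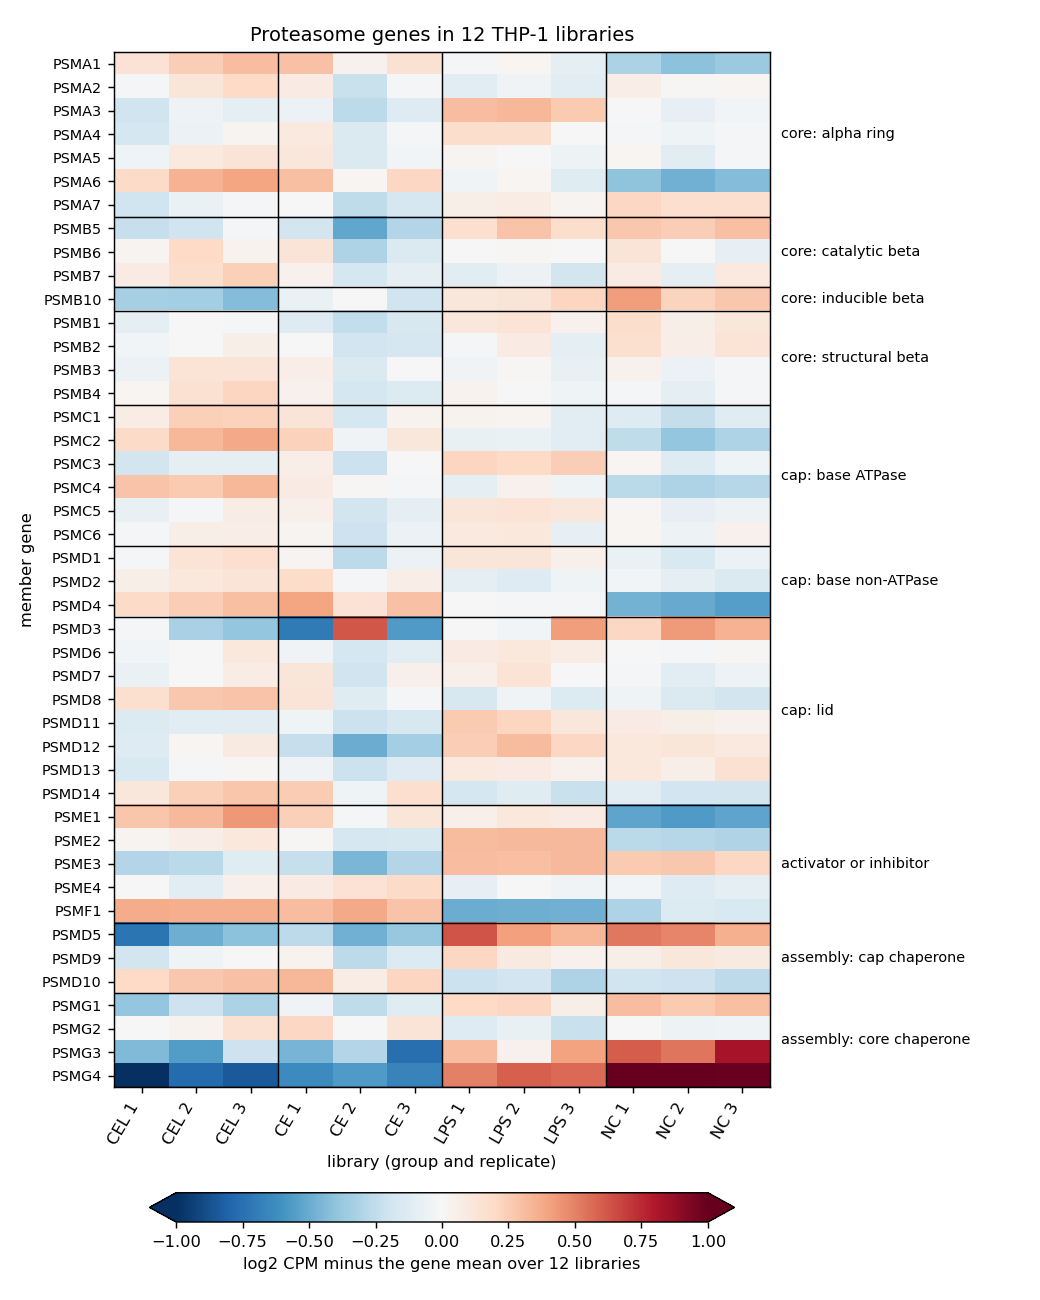
Each of 44 members (rows, by role) in each of 12 libraries (columns, by group), as log2 CPM minus the gene's mean over the libraries; colours saturate at 1 log2 unit either way. PSMG4, PSMG3 and PSMD5 are low in CEL and CE, PSMF1 and PSMD10 are high there, and PSMD3 is highest in CE 2.

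The core was examined first. In the alpha ring, PSMA1, PSMA3 and PSMA6 rose with LPS, and the other 4 did not pass. PSMA6 had 332, 345 and 313 CPM in LPS libraries, against 258, 244 and 252 CPM in NC libraries. The groups did not overlap, and the rise was 1.31-fold (0.39 ± 0.07, adjusted p = 0.00107) and stable. PSMA1 rose by 0.34 ± 0.07 and PSMA3 by 0.34 ± 0.06, both stable.

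With drugs the ring members parted. PSMA3 fell to 217, 189 and 207 CPM in CE libraries, against 281, 285 and 271 CPM in LPS libraries (-0.45 ± 0.06, adjusted p = 3.85e-05), and CEL gave -0.41 ± 0.06; both falls were stable. PSMA3 thus stood near its NC level, with changes of -0.11 in CE and -0.08 in CEL over NC that did not pass. PSMA6 went the other way, with 388, 433 and 448 CPM in CEL libraries and 419, 346 and 394 CPM in CE libraries. Over NC it rose by 0.75 ± 0.07 in CEL and by 0.62 ± 0.07 in CE, both stable, and every CEL and CE library lay above every NC library. Its change over LPS was 0.36 ± 0.07 in CEL, lost without the filter on low counts (adjusted p = 0.08855). In CE over LPS it was 0.23 ± 0.07 (adjusted p = 0.0238), and PSMA1 gave 0.20 ± 0.07. Both calls ended without any one of NC 3, LPS 1, LPS 2, LPS 3, CE 1, CE 3, CEL 1 and CEL 2, with adjusted p up to 0.285 for PSMA1 and 0.222 for PSMA6, and with 5 other settings. PSMA1 was stable over NC, at 0.60 ± 0.07 in CEL and 0.53 ± 0.07 in CE. PSMA7, whose product is also an alpha subunit, fell in CE over NC (-0.32 ± 0.06, stable), with 256, 215 and 228 CPM in CE libraries against 296, 288 and 288 CPM in NC libraries.

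None of the 3 catalytic beta genes passed in LPS over NC, with changes of -0.06 for PSMB5, -0.02 for PSMB6 and -0.15 for PSMB7 (adjusted p = 0.614, 0.917 and 0.109). PSMB5, which carries the chymotrypsin-like site that bortezomib blocks, had 29.3, 29.9 and 33.8 CPM in CEL libraries. It had 30.2, 23.9 and 28.0 CPM in CE libraries, 38.6, 41.8 and 38.8 CPM in LPS libraries, and 41.4, 40.7 and 42.2 CPM in NC libraries. All CEL and CE libraries lay below all LPS and NC libraries. The fall was 1.45-fold in CE over LPS (-0.54 ± 0.09, adjusted p = 0.000331, stable). In CEL over LPS it was -0.36 ± 0.09 (adjusted p = 0.00423), a call that ended without LPS 2, CEL 1 or CEL 2 (adjusted p 0.061 to 0.0654).

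PSMB6, which carries the caspase-like site, did not pass in any comparison and stayed between 26.7 CPM in CE 2 and 38.0 CPM in CEL 2. It had 33.7, 38.0 and 33.8 CPM in CEL libraries and 36.1, 26.7 and 29.9 CPM in CE libraries. LPS libraries had 33.0, 33.3 and 33.1 CPM, and NC libraries 36.2, 33.1 and 31.2 CPM. PSMB7, which carries the trypsin-like site, had 120.2, 128 and 134 CPM in CEL libraries, 117, 100.3 and 106 CPM in CE libraries and 105, 109 and 99.8 CPM in LPS libraries. In NC libraries PSMB7 had 119.9, 106.9 and 121.4 CPM, which overlapped CEL, and CEL over NC did not pass. PSMB7 rose in CEL over LPS by 0.28 ± 0.07 (adjusted p = 0.00482), a call that ended with upper quartile factors or without the filter on low counts (adjusted p up to 0.3045). The 3 catalytic genes thus differed in direction in CEL over LPS: PSMB5 fell, PSMB7 rose and PSMB6 did not pass (0.09, adjusted p = 0.509).

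PSMB10, the inducible counterpart of PSMB7, had 28.5, 28.4 and 26.6 CPM in CEL libraries and 34.3, 35.9 and 31.2 CPM in CE libraries. It had 38.7, 39.2 and 41.6 CPM in LPS libraries and 48.0, 41.9 and 43.2 CPM in NC libraries. No 2 groups overlapped, with CEL lowest and NC highest. LPS over NC did not pass (-0.16 ± 0.07, adjusted p = 0.103). PSMB10 fell 1.43-fold in CEL over LPS (-0.52 ± 0.07, adjusted p = 8.37e-05) and 1.6-fold in CEL over NC (-0.67 ± 0.07), both stable, and in CE over NC by 0.39 (stable). It fell by 0.24 in CE over LPS, a call that ended without LPS 3 or CE 3 (adjusted p up to 0.077), and by 0.28 in CEL over CE. The last call ended without NC 3, LPS 2, CE 1, CE 3, CEL 1, CEL 2 or CEL 3 (adjusted p up to 0.136). No filter on low counts ended the calls in CE over LPS and CEL over CE, and library size alone that in CEL over CE. Over these settings adjusted p reached 0.1655 in CE over LPS and 0.1 in CEL over CE.

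The ratio of PSMB10 to PSMB7 within a library does not depend on the scaling. It was 0.239, 0.224 and 0.211 in CEL libraries and 0.298, 0.363 and 0.301 in CE libraries. In LPS libraries it was 0.374, 0.365 and 0.423, and in NC libraries 0.41, 0.396 and 0.364. CEL lay below all other libraries, at 0.579 times the mean LPS ratio and 0.699 times the mean CE ratio. The two-sided exact permutation test gave p = 0.1 for each of these, the smallest that 3 against 3 libraries allow, and 0.12 after adjustment over 24 ratio tests.

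PSMB8 and PSMB9, the other inducible beta genes, lie outside the symbol rule and are given for comparison. With LPS both rose, PSMB9 2.3-fold (1.20 ± 0.06) and PSMB8 by 0.36 ± 0.06, while PSMB10 did not pass. PSMB8 then fell to 115 ± 5.61 CPM in CEL and 142 ± 13.8 CPM in CE, against 221 ± 5.76 CPM in LPS, and PSMB9 did not pass in CEL over LPS (-0.04, adjusted p = 0.563). In CE over LPS, PSMB9 went up by 0.24 (adjusted p = 0.00507), a call that ended without LPS 2, CE 1 or CE 3 (adjusted p up to 0.0707) and with RLE factors, upper quartile factors, library size alone, DESeq2 or no filter on low counts (adjusted p up to 0.458). The ratio of PSMB9 to PSMB6 was 1.29 times that of LPS in CE and 0.892 times in CEL (exact permutation p = 0.1 each, 0.12 adjusted). The ratio of PSMB8 to PSMB5 was 0.918 times that of LPS in CE, where the groups overlapped (exact permutation p = 0.2). In CEL it was 0.646 times that of LPS (exact permutation p = 0.1, 0.12 adjusted).

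The structural beta genes PSMB1 to PSMB4 moved little. None passed with LPS, and PSMB1 fell in CE over LPS, with 157, 145 and 153 CPM in CE libraries against 185, 189 and 176 CPM in LPS libraries (-0.28 ± 0.05, adjusted p = 0.000483, stable). PSMB2 fell by 0.24 in CE over NC, lost without the filter on low counts (adjusted p = 0.2372), and PSMB3 passed in no comparison. PSMB4 gave 0.22 ± 0.06 in CEL over CE (adjusted p = 0.0289), a call that ended without CE 2, CE 3, CEL 2 or CEL 3. It also ended with RLE factors, the replicate block or no filter on low counts (adjusted p up to 0.646 over settings).

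**Figure D3:**
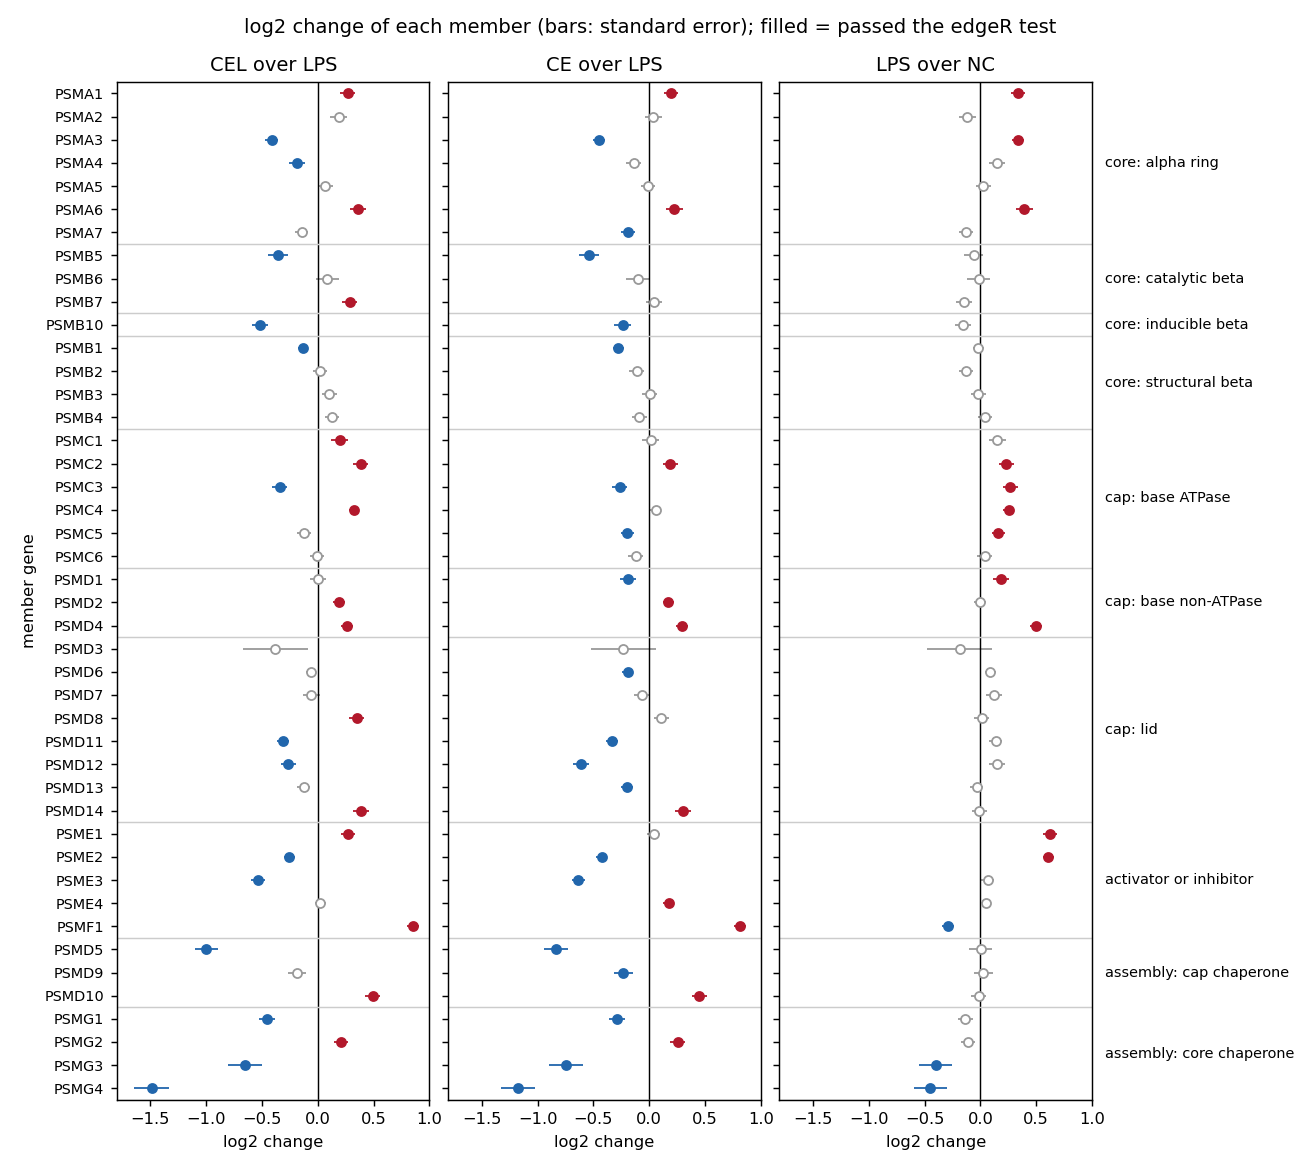
log2 change of each of 44 members with its standard error in CEL over LPS, CE over LPS and LPS over NC; filled points passed the test, red higher and blue lower. PSME1 and PSME2 lie together near 0.6 in LPS over NC and apart in both drug comparisons, and PSMG4 is lowest in all 3 panels.

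In the cap, 6 of 9 base genes rose with LPS, where 22.4% of all genes did, and 2 of the 6 calls were stable. They were PSMC2, PSMC3, PSMC4 and PSMC5 of 6 ATPases, and PSMD1 and PSMD4 of 3 other base genes. None of 8 lid genes passed, and the difference between base and lid was not tested. PSMD4, a receptor for ubiquitin chains, had 277, 274 and 274 CPM in LPS libraries, against 199.8, 195 and 190.1 CPM in NC libraries. The groups lay far apart for their spread, and the rise was 1.41-fold (0.50 ± 0.06, adjusted p = 2.37e-05, stable).

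PSMC4 rose 1.19-fold with LPS (0.26 ± 0.05, stable), with 71.9, 78.8 and 74.5 CPM in LPS libraries against 63.8, 62.1 and 62.8 CPM in NC libraries. The other 4 base rises were not stable. PSMC2 (0.23) ended without NC 2, NC 3, LPS 2, CE 3, CEL 1 or CEL 2 and PSMC3 (0.27) without NC 3 or LPS 2, with adjusted p up to 0.1235 and 0.0758. PSMC5 (0.16) ended without any library other than CE 2 and CEL 3, and PSMD1 (0.19) without any other than LPS 3 and CE 2, with adjusted p up to 0.258 and 0.246. Both also ended with the replicate block (adjusted p = 0.0622 and 0.0698). RLE factors, upper quartile factors, DESeq2 or no filter on low counts ended both as well (adjusted p up to 0.5784 and 0.4608). Upper quartile factors ended the calls of PSMC2 and PSMC3 too, and RLE factors that of PSMC2. Over these settings adjusted p reached 0.2169 for PSMC2 and 0.1196 for PSMC3.

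Drug treatment separated the base genes further. PSMC2 had 228, 252 and 259.9 CPM in CEL libraries, against 189.9, 191 and 186 CPM in LPS libraries, a stable rise of 0.38 ± 0.07 (adjusted p = 0.000519). It had 235, 195 and 217 CPM in CE libraries, where its change over LPS was 0.19 ± 0.07 (adjusted p = 0.0381). That call ended without any of 9 single libraries (NC 1, NC 3, LPS 1, LPS 2, LPS 3, CE 1, CE 3, CEL 1 and CEL 2, adjusted p up to 0.358). It also ended with RLE factors, upper quartile factors, library size alone, DESeq2, the replicate block or no filter on low counts (adjusted p up to 0.8787). PSMC3 went down, with 202, 216 and 215 CPM in CEL libraries against 267, 263 and 272 CPM in LPS libraries (-0.34 ± 0.07, stable). PSMC2 and PSMC3 thus moved in opposite directions in CEL, although their products sit in the same ATPase ring.

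PSMC4 rose in CEL over CE, to 93.4, 91.8 and 96.7 CPM against 81.2, 77.3 and 76.1 CPM (0.26 ± 0.05, adjusted p = 0.00248). The call held without each library in turn but ended without the filter on low counts (adjusted p = 0.467). Over NC, PSMC4 rose by 0.58 ± 0.05 in CEL (stable), and by 0.31 ± 0.05 in CE, where upper quartile factors ended the call (adjusted p = 0.65).

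PSMD4 kept rising with the drugs, to 318, 330.2 and 342 CPM in CEL libraries and 364, 307 and 340.0 CPM in CE libraries. Over NC it rose 1.69-fold in CEL (0.76 ± 0.06, adjusted p = 2.51e-07) and 1.73-fold in CE (0.79 ± 0.06, adjusted p = 2.21e-07), both stable. All 6 drug-treated libraries lay above all LPS libraries, and all LPS libraries above all NC libraries. Over LPS the changes were 0.26 in CEL and 0.29 in CE, which held without each library. Both ended with upper quartile factors, library size alone or no filter on low counts (adjusted p up to 0.366 and 0.168).

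In the lid, PSMD12 and PSMD11, both scaffold subunits, fell in CE over LPS. PSMD12 had 103, 85.6 and 95.3 CPM in CE libraries, against 143, 149.9 and 139 CPM in LPS libraries, a stable fall of 1.52-fold (-0.61 ± 0.07, adjusted p = 2.45e-05). In CEL libraries it had 110.1, 122 and 128 CPM, all above all CE libraries and below all LPS libraries. Its rise in CEL over CE was the largest among the members, 1.27-fold (0.34 ± 0.07, adjusted p = 0.00447), and was 0.27 without CE 2 (adjusted p = 0.00692). It held without each library and ended without the filter on low counts (adjusted p = 0.157). In CEL over LPS it was -0.26, a call that ended without LPS 2, CE 3, CEL 1 or CEL 2 (adjusted p up to 0.1496). PSMD11 fell by 0.33 in CE and by 0.32 in CEL over LPS, both stable among the count-based fits and of opposite sign in CEL over LPS in the 3 fits to TPM.

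PSMD14, the lid deubiquitinase that removes ubiquitin chains from substrates, went up. It had 180.3, 196 and 202 CPM in CEL libraries, 198, 161 and 187 CPM in CE libraries, and 148, 153 and 143 CPM in LPS libraries. All CEL and CE libraries exceeded all LPS libraries. The rise over LPS was 0.38 ± 0.07 in CEL (adjusted p = 0.000703, stable) and 0.30 ± 0.07 in CE (adjusted p = 0.004). The call in CE ended without CE 1 or CE 3 (adjusted p up to 0.0667). It also ended with upper quartile factors, library size alone or no filter on low counts (adjusted p up to 0.2054).

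PSMD3, another lid scaffold, depended on CE 2, with 19.9, 49.9 and 21.9 CPM in CE libraries against 32.3, 31.8 and 43.4 CPM in LPS libraries. It did not pass in CE over LPS with all libraries (-0.23, adjusted p = 0.555), whereas without CE 2 the change was -0.77 (adjusted p = 0.00127). PSMD3 was named after its values were seen.

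The remaining cap genes changed by less. PSMD8, a lid subunit, rose by 0.35 in CEL over LPS (adjusted p = 0.00106), a call that held without each library and ended without the filter on low counts (adjusted p = 0.1117). It gave 0.24 in CEL over CE, lost without CE 2, CE 3, CEL 1, CEL 2 or CEL 3 (adjusted p up to 0.0996). RLE factors, the replicate block or no filter on low counts also ended that call (adjusted p up to 0.5858). PSMD2, a base scaffold, gave 0.19 in CEL over LPS, lost without LPS 2 (adjusted p = 0.0557) and with RLE factors, upper quartile factors, library size alone, DESeq2 or no filter on low counts (adjusted p up to 0.6182). It gave 0.17 in CE over LPS, lost without NC 3, LPS 1, LPS 2, CE 1, CE 3, CEL 1 or CEL 2 (adjusted p up to 0.2853) and with the same 5 settings (adjusted p up to 0.9894). PSMD6 fell by 0.19 in CE over LPS, lost without the filter on low counts (adjusted p = 0.2214). PSMD13 gave -0.20 there, lost without LPS 2 or CE 3 (adjusted p up to 0.0689) and without the filter on low counts (adjusted p = 0.1983). PSMC1 rose over NC by 0.34 in CEL, lost with upper quartile factors (adjusted p = 0.3158). PSMC6 and PSMD7 passed in no comparison.

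Among the activators, PSME1 and PSME2 had the largest rises of all members with LPS. PSME1 had 123, 128 and 126 CPM in LPS libraries, against 82.4, 80.2 and 82.4 CPM in NC libraries, a 1.54-fold rise (0.62 ± 0.06, adjusted p = 8.28e-06). PSME2 had 162, 163 and 162 CPM in LPS libraries, against 108, 106 and 105 CPM in NC libraries, a 1.52-fold rise (0.61 ± 0.05, adjusted p = 1.22e-06). Both rises were stable, no library of one group reached the other, and the 2 changes were nearly equal in size.

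In drug-treated cells the 2 genes separated. PSME2 fell to 132, 136 and 140.0 CPM in CEL libraries (-0.25 ± 0.05 over LPS, adjusted p = 0.000793) and to 131, 116 and 116 CPM in CE libraries (-0.42 ± 0.05, adjusted p = 2.04e-05), both stable. PSME1 had 144, 149 and 161 CPM in CEL libraries and 140.4, 118 and 129 CPM in CE libraries. It did not pass in CE over LPS (0.04, adjusted p = 0.638), and its rise in CEL over LPS (0.27 ± 0.06, adjusted p = 0.00299) ended with upper quartile factors or without the filter on low counts (adjusted p up to 0.352). Over NC, PSME1 rose by 0.89 ± 0.06 in CEL and by 0.66 ± 0.06 in CE, both stable.

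PSME2 over NC gave 0.35 ± 0.05 in CEL, lost with upper quartile factors (adjusted p = 0.12). In CE it gave 0.18 ± 0.05, lost without NC 3, LPS 2, CE 1, CE 3, CEL 1 or CEL 2 (adjusted p up to 0.217) and of opposite sign, -0.10, with upper quartile factors. The call in CE also ended with RLE factors, library size alone, DESeq2 or no filter on low counts (adjusted p up to 0.7474 over settings). Both genes rose in CEL over CE, PSME1 by 0.23 (adjusted p = 0.0195) and PSME2 by 0.17 (adjusted p = 0.0246). Neither call was stable: PSME1 ended without CE 3, CEL 2 or CEL 3, and PSME2 without CE 2, CE 3, CEL 1, CEL 2 or CEL 3 and with the replicate block (adjusted p = 0.0511). Both also ended with RLE factors or without the filter on low counts (adjusted p up to 0.6274 for PSME1 and 0.6763 for PSME2).

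The ratio of PSME1 to PSME2 shows the separation within each library. It was 0.927, 0.913 and 0.954 in CEL libraries, 0.883, 0.843 and 0.923 in CE libraries, 0.633, 0.647 and 0.645 in LPS libraries, and 0.624, 0.6 and 0.655 in NC libraries. CEL and CE libraries all lay above LPS and NC libraries, while LPS overlapped NC. The mean ratio was 1.45 times that of LPS in CEL and 1.38 times in CE, each with an exact permutation p of 0.1, the smallest possible. The 2 genes lie on chromosome 14, PSME1 at chr14:24136194-24138962 and PSME2 at chr14:24143365-24146610, on opposite strands. PSME2 has pseudogene rows that hold 2.02% as many counts as it does.

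**Figure D4:**
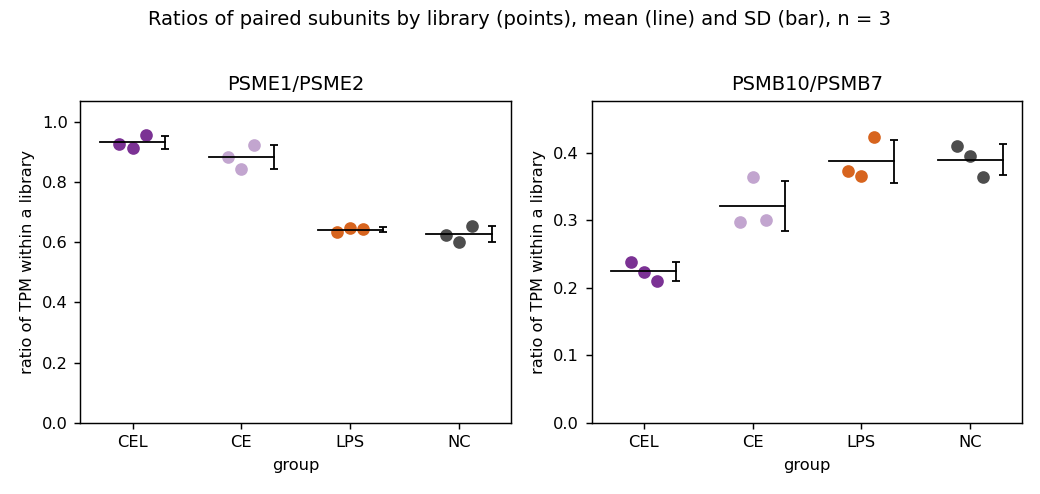
Ratio of TPM of PSME1 to PSME2 (left) and of PSMB10 to PSMB7 (right) in each library, with the mean and SD of 3 libraries per group. The first is 0.843 to 0.954 in CEL and CE against 0.6 to 0.655 in LPS and NC, and the second is lowest in CEL at 0.211 to 0.239.

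PSME3 and PSME4 encode nuclear activators. PSME3 did not pass with LPS (0.07, adjusted p = 0.421) and fell with the drugs. It had 138, 139.7 and 155 CPM in CEL libraries and 144, 123 and 138 CPM in CE libraries, against 209, 208 and 211 CPM in LPS libraries. The groups did not overlap, and the fall was 1.45-fold in CEL (-0.54 ± 0.06, adjusted p = 1.52e-05) and 1.55-fold in CE (-0.63 ± 0.06, adjusted p = 5.78e-06), both stable. Over NC, at 203, 203 and 195 CPM, it fell by 0.47 in CEL and by 0.57 in CE, also stable.

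PSME4 had 126, 117 and 130.1 CPM in CEL libraries, 133, 139 and 143 CPM in CE libraries, 119, 126 and 123 CPM in LPS libraries, and 124, 115 and 117 CPM in NC libraries. CE was highest, and the other groups overlapped. Its changes in CE were 0.17 over LPS and 0.22 over NC, both lost with upper quartile factors, which gave -8.2e-05 and -0.063 while moving the median of all genes by -0.18 and -0.29. The first also ended with RLE factors, library size alone, DESeq2 or no filter on low counts, and the second with library size alone or no filter. The first ended without NC 3, LPS 1, LPS 2, CE 1, CE 3 or CEL 1 (adjusted p up to 0.169), and the second without CE 3 (adjusted p = 0.0687). In CEL over CE, PSME4 gave -0.15 (adjusted p = 0.0494), a call that ended without any library other than CEL 3 (adjusted p up to 0.669). It also ended with the replicate block, RLE factors, upper quartile factors, library size alone, DESeq2 or no filter (adjusted p up to 0.3532).

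PSMF1, which encodes an inhibitor of the core in the test tube, had the largest rise of all members in both drug groups over LPS. It had 72.5, 72.4 and 72.3 CPM in CEL libraries and 69.4, 73.0 and 68.4 CPM in CE libraries. LPS libraries had 39.9, 40.0 and 40.2 CPM, and NC libraries 45.4, 51.0 and 50.5 CPM. No drug-treated library came near an LPS or NC library. Over LPS, PSMF1 rose 1.81-fold in CEL (0.85 ± 0.05, adjusted p = 1.52e-07) and 1.75-fold in CE (0.81 ± 0.05, adjusted p = 3.55e-07), both stable and, in CE, 0.79 without CE 2. Over NC it rose by 0.56 in CEL and by 0.52 in CE, both stable. LPS over NC gave a fall of 0.29 (adjusted p = 0.00115), which held without each library and ended without the filter on low counts (adjusted p = 0.265). PSMF1 lies at chr20:1113263-1172246.

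**Figure D5:**
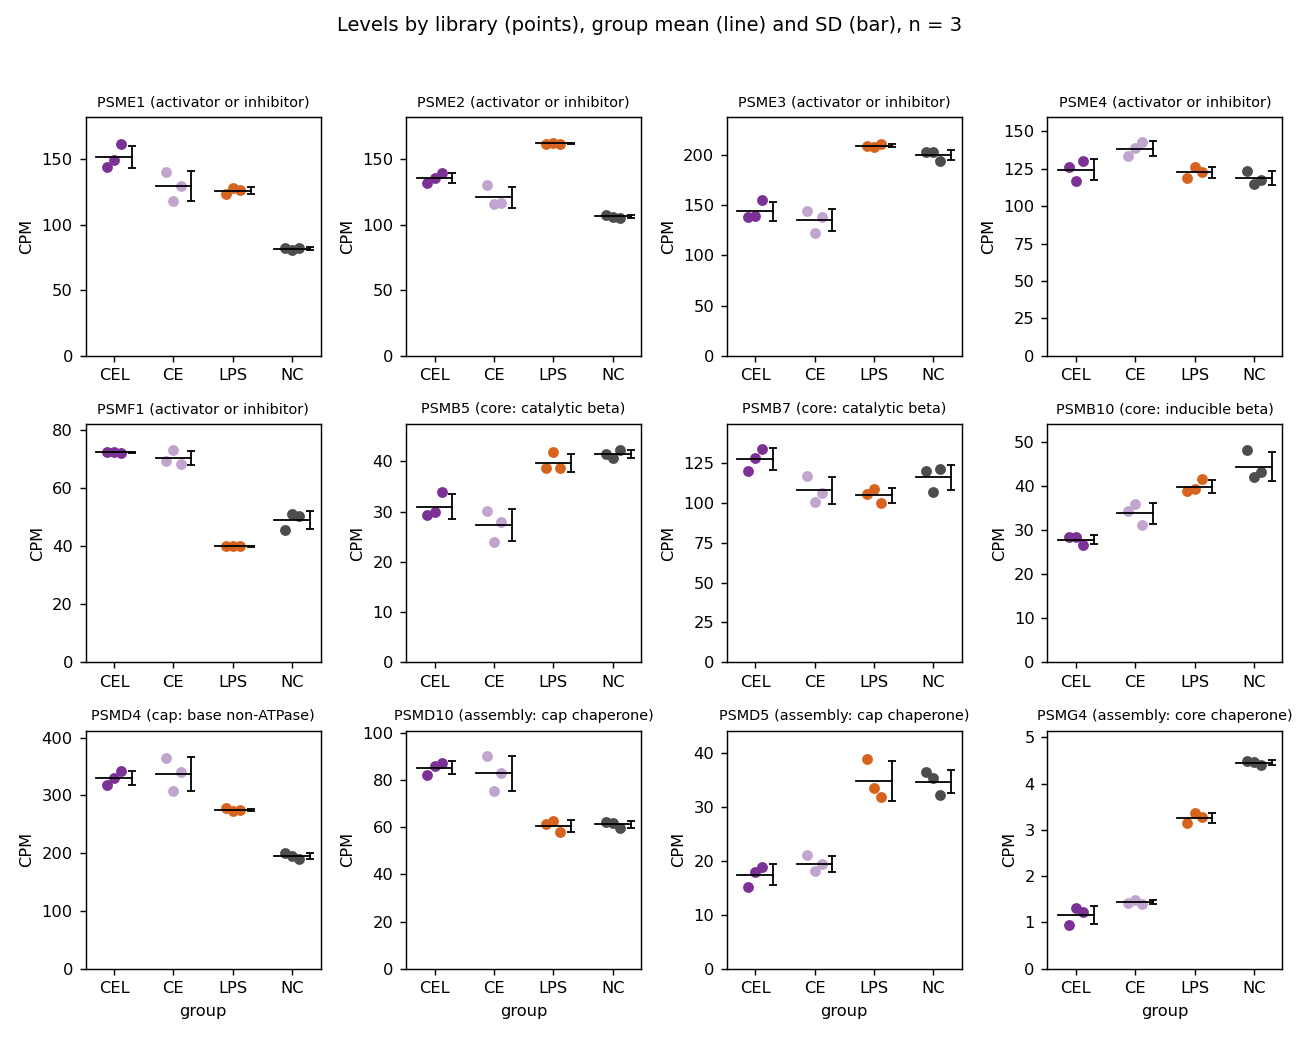
CPM of 12 members in each library (points), with the group mean (line) and SD (bar) of 3 libraries; all axes start at 0. PSMF1 is at 68.4 to 73.0 CPM in CEL and CE against 39.9 to 51.0 CPM in LPS and NC, and PSMG4 is at 0.952 to 1.49 CPM against 3.14 to 4.49 CPM.

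The assembly chaperones held the largest falls. Those of the core work in pairs, PSMG1 with PSMG2 and PSMG3 with PSMG4, to build the alpha ring. PSMG4 had 0.952, 1.30 and 1.24 CPM in CEL libraries, 1.43, 1.49 and 1.40 CPM in CE libraries, 3.14, 3.36 and 3.29 CPM in LPS libraries, and 4.49, 4.48 and 4.40 CPM in NC libraries. No 2 groups overlapped, in an order of NC, LPS, CE and CEL from high to low. The fall over LPS was 2.8-fold in CEL (-1.49 ± 0.16, adjusted p = 8.35e-06) and 2.26-fold in CE (-1.18 ± 0.15, adjusted p = 6.23e-05). Over NC it was 3.82-fold in CEL (-1.94 ± 0.16) and 3.09-fold in CE (-1.63 ± 0.15), and these 4 calls were stable. PSMG4 rested on few reads, 22 to 31 counts in each CEL and CE library.

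In LPS over NC, PSMG4 fell by 0.45 (adjusted p = 0.0265), a call that ended without NC 1, NC 2, LPS 1 or LPS 3 (adjusted p up to 0.0821). It also ended with DESeq2 or no filter on low counts (adjusted p up to 0.5505). CEL over CE did not pass (-0.31, adjusted p = 0.318), although the groups did not overlap. PSMG4 lies at chr6:3254404-3268049 and PSMG3 at chr7:1567332-1570032.

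PSMG3, its partner, had 5.84, 5.41 and 6.88 CPM in CEL libraries, 5.76, 6.50 and 4.72 CPM in CE libraries, 9.82, 8.19 and 10.5 CPM in LPS libraries, and 12.1, 11.5 and 14.0 CPM in NC libraries. CEL and CE overlapped each other and lay below LPS and NC. It fell 1.57-fold in CEL (-0.65 ± 0.15, adjusted p = 0.00324) and 1.68-fold in CE over LPS (-0.75 ± 0.15, adjusted p = 0.00161), and by 1.05 and 1.15 over NC, all stable. With LPS over NC its change was -0.40 (adjusted p = 0.0475), lost without any LPS or NC library or CEL 3 (adjusted p up to 0.132) and with the replicate block (adjusted p = 0.0711). DESeq2 or no filter on low counts ended that call as well (adjusted p up to 0.3423).

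The other pair split. PSMG1 had 45.7, 51.8 and 48.2 CPM in CEL libraries and 58.4, 50.3 and 55.0 CPM in CE libraries, against 68.7, 69.3 and 62.3 CPM in LPS libraries and 74.2, 71.9 and 73.6 CPM in NC libraries. It fell by 0.46 in CEL over LPS (adjusted p = 0.000181, stable) and by 0.29 in CE over LPS (adjusted p = 0.00499), the second lost without the filter on low counts (adjusted p = 0.0508). PSMG2 went up instead, by 0.21 in CEL over LPS and by 0.26 in CE over LPS, but neither call was stable. The first ended without CEL 3 (adjusted p = 0.0739), and the second without CE 1 or CE 3 (adjusted p up to 0.0939). Both also ended with RLE factors, upper quartile factors, library size alone, DESeq2 or no filter on low counts. Over these settings adjusted p reached 0.5527 in CEL over LPS and 0.3596 in CE over LPS.

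The cap chaperones PSMD5, PSMD9 and PSMD10 bind the ATPases before the base is complete. PSMD5 had 15.2, 18.0 and 18.9 CPM in CEL libraries and 21.0, 18.0 and 19.4 CPM in CE libraries, against 38.9, 33.5 and 31.7 CPM in LPS libraries and 36.3, 35.3 and 32.2 CPM in NC libraries. The drug-treated libraries all lay far below the others. It fell 2.00-fold in CEL (-0.999 ± 0.10, adjusted p = 7.84e-06) and 1.78-fold in CE over LPS (-0.83 ± 0.10, adjusted p = 4.33e-05), both stable, and did not pass in LPS over NC (0.00, adjusted p = 0.985).

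PSMD10, also known as gankyrin, moved up. It had 81.9, 86.0 and 87.3 CPM in CEL libraries and 90.0, 75.3 and 83.0 CPM in CE libraries, against 61.5, 62.5 and 57.7 CPM in LPS libraries and 62.3, 61.9 and 59.5 CPM in NC libraries. The rise over LPS was 1.41-fold in CEL (0.49 ± 0.07, adjusted p = 5.84e-05) and 1.37-fold in CE (0.45 ± 0.07, adjusted p = 0.000144), both stable, and LPS over NC did not pass (-0.02, adjusted p = 0.865). PSMD5 and PSMD10 thus parted in opposite directions. PSMD9 gave -0.23 in CE over LPS (adjusted p = 0.0383), a call that ended without 9 single libraries (every NC library, LPS 1, LPS 2, CE 2, CE 3, CEL 1 and CEL 2, adjusted p up to 0.165), and -0.19 in CEL over LPS, which did not pass. The PSMD9 call in CE over LPS also ended with RLE factors, DESeq2, the replicate block or no filter on low counts (adjusted p up to 0.2941). PSMD5 lies at chr9:120816053-120842922 and PSMD10 at chrX:108084207-108091542.

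The summed levels of the roles follow. The 5 activators or inhibitors summed to 629 ± 25.9 CPM in CEL, 594 ± 24.8 CPM in CE, 660.2 ± 6.33 CPM in LPS and 556 ± 6.04 CPM in NC. The 4 core chaperones summed to 145 ± 6.54, 154 ± 10.4, 156.5 ± 6.65 and 173 ± 2.88 CPM in the same order, and the 17 cap genes to 3061 ± 139, 2866 ± 228, 2930 ± 49.9 and 2642 ± 65.7 CPM. The 3 cap chaperones summed to 127 ± 6.35 CPM in CEL, 126 ± 11.2 CPM in CE, 123 ± 7.02 CPM in LPS and 123 ± 3.56 CPM in NC. The 15 core genes summed to 2848 ± 173 CPM in CEL, 2671 ± 222 CPM in CE, 2776 ± 97.0 CPM in LPS and 2608 ± 74.1 CPM in NC. The sums of core and cap overlapped between CEL, CE and LPS libraries. These sums are descriptions with no test, over n = 3 libraries each.

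Beyond the members, 36 genes of the ubiquitin-proteasome pathway were listed and 35 tested. LPS over NC raised 14 (22.4% of all genes) and lowered 7 (23.5%). CE over LPS raised 11 (28.8%) and lowered 4 (20.7%), and CEL over LPS raised 12 (28.7%) and lowered 5 (27.2%). CEL over CE raised 5 (8.78%) and lowered 2 (14.8%). Over NC, CE raised 19 (34.6%) and lowered 9 (29.4%), and CEL raised 17 (34.0%) and lowered 8 (33.0%). NFE2L2, a transcription factor of the oxidative stress response that can act on proteasome genes, rose in every one of these. It had 617, 635 and 679 CPM in CEL libraries, 549.6, 482 and 536 CPM in CE libraries, 259, 254 and 231 CPM in LPS libraries, and 122, 114 and 118 CPM in NC libraries. The groups were ordered without overlap, with rises of 1.38 ± 0.06 in CEL and 1.08 ± 0.06 in CE over LPS, and of 1.08 ± 0.06 in LPS over NC, all held in all 21 alternatives. The rise in CEL over CE was 0.30 and ended without the filter on low counts (adjusted p = 0.3023).

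AKIRIN2, needed to import proteasomes into the nucleus, rose 2.14-fold with LPS (1.10 ± 0.24) and by 0.89 ± 0.23 in CEL over LPS. Its CE libraries held 23.0, 46.7 and 24.8 CPM, with CE 2 highest, and its change in CE over LPS was 0.73, and 0.34 without CE 2. That call ended without LPS 1 or LPS 2 (adjusted p up to 0.068) and with upper quartile factors or library size alone (adjusted p up to 0.0807). UCHL5, a deubiquitinase of the cap, fell 1.87-fold in CEL (-0.90 ± 0.07) and 1.67-fold in CE over LPS (-0.74 ± 0.07), both held in all 21 alternatives. VCP, the segregase that unfolds ubiquitylated proteins, fell by 0.33 in CEL and by 0.49 in CE over LPS, and UBE3C, a proteasome-bound ubiquitin ligase, by 0.66 and 0.52. TXNL1, a thioredoxin of the cap, rose by 0.58 in CEL over LPS.

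In LPS over NC, RPS27A, which encodes ubiquitin fused to a ribosomal protein, fell by 0.51 ± 0.07. PAAF1, a cap chaperone, fell by 0.33 ± 0.08, a call that ended without the filter on low counts (adjusted p = 0.3232). In CEL over CE, UBA6, a ubiquitin activating enzyme, and NGLY1, which activates NFE2L1, fell by 0.31 and 0.36. UBA6 and NGLY1 each ended without CE 1, CE 3, CEL 1 or CEL 2 (adjusted p up to 0.104 and 0.0981). NFE2L1, the factor that restores proteasome genes after inhibition, and SQSTM1, an autophagy receptor, stood high in CE 2 with 207 and 274 CPM, against 48.6 and 65.5 CPM and 71.6 and 83.5 CPM in the other CE libraries. In all, 10 of these 35 genes were over 1.5 times higher in CE 2 than in both other CE libraries, and the share of all genes was not counted. NFE2L1 rose with LPS by 1.34 ± 0.47, lost without LPS 1, LPS 3 or any NC library (adjusted p up to 0.122) and with the replicate block (adjusted p = 0.0517), and did not pass in CE or CEL over LPS. SQSTM1 rose with LPS by 1.47 ± 0.45, lost without NC 1, NC 2 or LPS 3. In CE over LPS its call (1.16, adjusted p = 0.0448) was lost without CE 2 among 9 libraries (NC 1, NC 2, NC 3, LPS 1, LPS 2, LPS 3, CE 2, CEL 2 and CEL 3, adjusted p up to 0.29). That call was also lost with upper quartile factors, library size alone or the replicate block (adjusted p up to 0.1012).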

How the data were processed

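RNA from 12 libraries was enriched with oligo-dT beads and sequenced, per the labels' protocols. The authors deposited estimated counts and TPM per gene. Per the submitters' processing notes the build was hg38. For the counting tool and its strand setting, the entry is not given in the sources used here. Columns were matched to the 4 groups by name, and those named only as treated were taken as CE, the remaining treated group.

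Counts were rounded to whole numbers and tested with edgeR 4.0.16 in R 4.3.3. The test was the quasi-likelihood F-test in 1 fit of 12 libraries, with TMM factors and the filterByExpr filter, and p-values were adjusted by Benjamini-Hochberg over 14065 genes. Standard errors are the log2 change divided by the square root of F. Of the 44 members, 22 had a count that was not whole (tolerance 0.005) in some library, and pseudogene rows hold 3.10% as many counts as PSMC1, 2.02% as many as PSME2 and at most 0.227% for others. Ratios of deposited TPM were compared by exact permutation tests. Depth was 17737240 to 23183474 counts per library.

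The alternatives were RLE, upper quartile or no scaling factors, no filter on low counts, DESeq2 1.42.0, a replicate block, each library left out, and limma 3.58.1 on log2 TPM with a pseudocount of 1 or 0.1, or with no filter. The labels give each sample a batch number equal to its replicate number, from which the pairing comes. Over 7460 genes, deviations from the group means of the 18 same-number pairs correlated at -0.86 to 0.73, 6 exceeded 0.1, the median was -0.186, and 1 library correlated best with one of its own number. Values per library were given for 12 members and, in each comparison, for the 3 largest rises and falls past the threshold, and others chosen after their values were seen were PSMA3, PSMA7, PSMB1, PSMC3 and PSMD3. The members and gene lists were chosen with earlier results of these data known. FPKM was not used here. The values of 1 listed pathway gene are not reported here.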

Additional observations from a re-analysis of the deposited data

How the results depend on the processing

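Counts of members called varied with the scaling. Upper quartile factors moved the median change of all genes by -0.11 in LPS over NC, -0.18 in CE over LPS, -0.13 in CEL over LPS, -0.29 in CE over NC and -0.24 in CEL over NC, and library size alone by -0.15, -0.11, -0.16 and -0.12 in the last 4. In LPS over NC, 7 members were higher and 10 lower with upper quartile factors, 0 were lower without the filter on low counts (0 also at an unadjusted p under 0.05) and 1 with DESeq2. The 3 limma fits to TPM gave 5, 5 and 3 higher and 0 lower (0 unadjusted).

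In CE over LPS, 4 were higher with RLE factors or DESeq2, and 2 with upper quartile factors, library size alone or no filter, where 10 were lower without the filter. The TPM fits gave 2, 2 and 1 higher and 6, 6 and 2 lower. In CEL over LPS, 7 were higher with upper quartile factors and 4 without the filter, and the TPM fits gave 5, 5 and 2 higher and 2 lower in each.

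In CEL over CE, higher calls numbered 2 with RLE factors, 13 with library size alone, 3 with the replicate block, and 0 without the filter or in the TPM fits (1 unadjusted in each). Lower calls numbered 1 with RLE factors, upper quartile factors, DESeq2 or the replicate block, and 0 with library size alone (1 unadjusted), without the filter (2) or in the TPM fits (0). In CE over NC, 5 were higher with upper quartile factors and 7 in the unfiltered TPM fit, and lower calls numbered 29 with upper quartile factors, 26 with library size alone and 2 in each TPM fit. In CEL over NC, 8 were higher with upper quartile factors, and lower calls numbered 22, 17 with library size alone and 3 in each TPM fit. The cause of these shifts was not tested.

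With 1 library left out, the higher and lower counts ranged over 7 to 16 and 1 to 4 in LPS over NC, 3 to 11 and 13 to 22 in CE over LPS, 12 to 16 and 10 to 19 in CEL over LPS, 2 to 21 and 0 to 3 in CEL over CE, 8 to 16 and 13 to 19 in CE over NC, and 12 to 16 and 7 to 12 in CEL over NC. The replicate block ended member calls of PSMC5, PSMG3 and PSMD1 in LPS over NC, PSMD9, PSMC2 and PSMD1 in CE over LPS, PSMB1, PSMA4 and PSMC1 in CEL over LPS, and PSME4, PSMD8, PSME2, PSMB7 and PSMB4 in CEL over CE, and no other. With upper quartile factors, whose shift of all genes is given above, PSME4 was at -8.2e-05 in CE over LPS, which is no change, at -0.063 in CE over NC and at -0.18 in CEL over NC, and PSME2 was at -0.10 in CE over NC. PSMG4 had 22 to 31 counts per CEL or CE library, which limits its precision.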
